A study of Mus musculus with 11 samples.

Results

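Interferon-stimulated genes were followed in the colon of mice with and without a gut microbiota. The set held 42 genes chosen by name, with no measured value in the rule. All 42 were found among the 43346 genes of the deposited count table, and all 42 passed the filter on low counts that left 19863 genes for testing. By role the set comprised 4 sensors of viral RNA and Z-form nucleic acid, 6 signalling and feedback genes, 16 antiviral effectors, 8 other type I interferon genes and 8 GTPases inducible by interferon-gamma. For the comparison of classes, 32 members were counted as type I type and the 8 GTPases as interferon-gamma type. Irf1 and Socs1, known to respond to both kinds of interferon, were counted in neither. The classes are labels given by name, and members of either may also respond to the other kind of interferon.

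The mice were male Swiss Webster animals kept in isolators and studied at 8 to 10 weeks of age. The germ-free group (n = 5) carried no microbiota. The humanized group (n = 6) consisted of germ-free mice gavaged at 4 to 5 weeks of age with 300 µL of a stool suspension from 1 healthy human donor, followed by 4 to 5 weeks of adaptation, so differences between the groups concern this 1 donor's microbiota. Messenger RNA of whole colonic tissue was sequenced in each mouse.

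Interferons are secreted proteins that signal through the JAK kinases and STAT factors. Type I and type III interferons act through a complex holding Stat2 and Irf9 that binds the interferon-stimulated response element, whereas interferon-gamma acts through the gamma activated site. Both routes raise transcription of antiviral and antimicrobial genes, and in the intestine these genes are known to be expressed at a tonic level in epithelial and immune cells.

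The libraries held 49097005 to 64148538 counts in germ-free mice and 39125290 to 54219854 in humanized mice. Levels below are TMM-normalized RPKM, reads per kilobase of gene scaled to library size, and differences are log2-fold changes (LFC) of humanized over germ-free with their standard error (SE). Of all tested genes, 19.3% passed FDR = 0.01, with 9.2% higher and 10.1% lower in humanized mice by the edgeR exact test, and the median LFC was 0.01. Scaling to total counts moved that median to −0.18 and the shares to 3.89% higher and 18.2% lower, and scaling to 11 epithelial genes moved them to −0.24, 2.41% and 14.2%. Defining markers of colon and epithelium were abundant in every library.

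A small part of the interferon set was higher in humanized colon, and its share was near that of all tested genes. The sensor Zbp1, the transcription factor Irf1 and the antiviral effectors Ifit1, Ifit2 and Rsad2 passed the threshold, which makes 5 of 42 members (11.9%) against 9.2% of all tested genes, and 0 of 42 passed as lower against 10.1%. The other 37 members did not pass, and 13 members had an unadjusted p below 0.05. At FDR = 0.05, 12 members were higher and 0 lower, against 14% and 14.6% of all genes. The median LFC of the 42 members was 0.18, with 30 members above 0 (71.4%) against 51.2% of all genes. Scaling to total counts or to epithelial genes turned the median to −0.01 and −0.11, with 20 and 18 members above 0, and without humanized mouse 6 it was 0.03, with 23 above 0. With DESeq2 the count was again 5 higher and 0 lower (11% of all genes in each direction), and with the quasi-likelihood test likewise (7.05% higher and 6.53% lower). The same 5 genes passed under all 22 alternatives tried. These include the main fit read at FDR = 0.05, where genes below FDR = 0.01 cannot fail.

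Zbp1 (chr2:173206612-173218923) encodes a sensor of Z-form nucleic acid that can start necroptosis. Its level was 2.74, 2.17, 2.27, 2.55 and 2.5 RPKM in germ-free mice 1 to 5, and 4.74, 6.15 and 7.53 RPKM as the lowest, median and highest of the humanized mice. The groups did not overlap, and the lowest humanized mouse stood well above the highest germ-free mouse. Zbp1 was 2.51-fold higher (LFC = 1.33, SE = 0.14, FDR = 2.02e-15 by the edgeR exact test).

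Irf1 (chr11:53770014-53778374), a transcription factor induced by interferon-gamma and also by type I interferon, had the highest mean over all 11 mice, although Ifitm3 and Irf7 were above it in germ-free mice. The 5 germ-free mice had 31.4, 27.8, 28.4, 26.8 and 28 RPKM, and the humanized mice had a lowest level of 38.2, a median of 45.2 and a highest of 54.4. The groups were again apart, with every germ-free mouse but 1 within a narrow range. The increase was smaller in fold than for the other genes that passed (LFC = 0.70, SE = 0.09, FDR = 9.51e-11).

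Ifit1 (chr19:34640871-34650009) encodes a protein that binds viral RNA lacking the host cap mark. It measured 4.38, 2.89, 1.86, 2.94 and 3.07 RPKM in germ-free mice, and 5.64, 9.77 and 13.8 RPKM as the lowest, median and highest in humanized mice. Germ-free mouse 1 was closest to the humanized range without reaching it. The LFC was 1.63 (SE = 0.25, FDR = 1.74e-08), the greatest of the 42 members.

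Ifit2 (chr19:34550694-34576419), a related protein of the same gene cluster, measured 2.02, 1.56, 1.35, 1.72 and 1.5 RPKM in germ-free mice. In humanized mice the lowest was 3.11, the median 4.06 and the highest 8.16, the last in humanized mouse 2. There was no overlap, and mouse 2 stood apart from the other humanized mice. The LFC was 1.48 (SE = 0.23, FDR = 4.63e-08).

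Rsad2 (chr12:26442753-26456452) encodes viperin, an enzyme that makes a chain-terminating nucleotide. Its levels were 1.62, 0.799, 0.751, 0.651 and 0.876 RPKM in germ-free mice, with a lowest of 1.85, a median of 2.59 and a highest of 3.38 in humanized mice. Germ-free mouse 1 was the highest of its group by a wide margin and still lay under every humanized mouse. The LFC was 1.49 (SE = 0.24, FDR = 2.52e-07). The exact permutation test over the mice (two-sided, n = 5 and 6) gave p = 0.00216 for each of Zbp1, Irf1, Ifit1, Ifit2 and Rsad2, the smallest that the possible splits of the mice allow. This p is not adjusted over the 42 members and rests on the same separation of the mice as the overlap of the groups. These 5 members (11.9%) were those whose groups did not overlap, against 8.67% of all tested genes with humanized higher. No member separated the groups with humanized lower, against 9.73%.

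**Figure D1:**
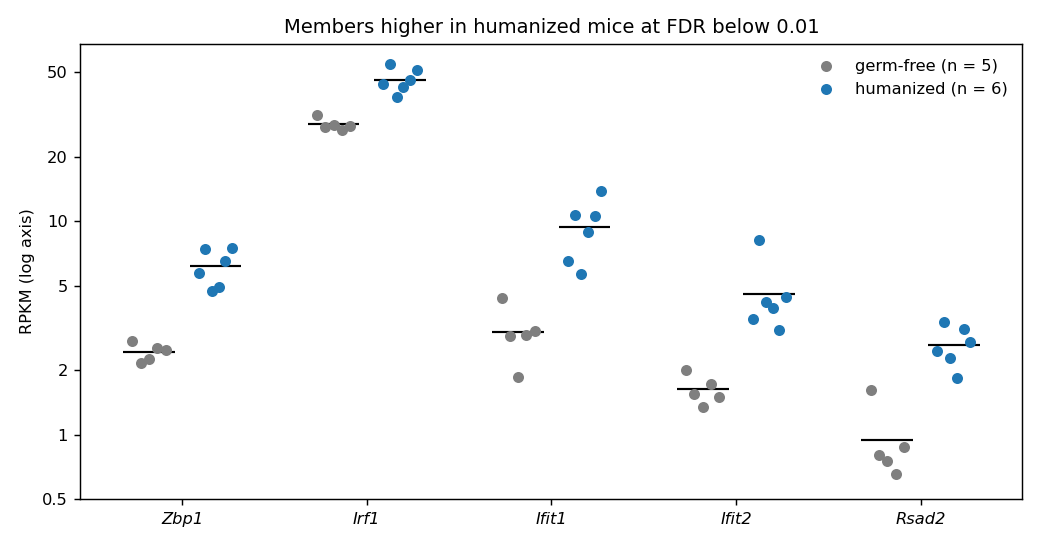
Level in RPKM (vertical log axis) of the members that passed the threshold, with 1 point per mouse, germ-free in grey (n = 5) and humanized in blue (n = 6), and a line at each group mean. Every humanized point lies above every germ-free point of the same gene, and Irf1 is the most abundant at 26.8 to 54.4 RPKM.

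Ifit3 and Cmpk2, neighbours of genes that passed, did not pass, a comparison chosen after the values were seen. Ifit3 (chr19:34583531-34588731), which lies between Ifit2 and Ifit1, had an LFC of −0.02 (SE = 0.22, FDR = 0.963). Cmpk2 (chr12:26469204-26479835), a mitochondrial nucleotide kinase gene next to Rsad2, had an LFC of −0.13 (SE = 0.14, FDR = 0.583). The ratio of neighbours within a mouse does not depend on scaling, and it is given as a description for 3 pairs picked for their values. The log2 ratio of Ifit1 to Ifit3 ranged from 0.88 to 2.18 in germ-free and from 2.91 to 3.66 in humanized mice. The log2 ratio of Ifit2 to Ifit3 ranged from 0.42 to 1.07 and from 1.44 to 3.27. For Rsad2 to Cmpk2 it ranged from −3.08 to −2.18 and from −1.43 to −0.68. None of these ranges overlapped. Ifit3 has a near-identical copy, Ifit3b, deposited under an older name, which could take reads from it. Ifit3b itself had an LFC of −0.22 (FDR = 0.483). Ifit1bl2, another gene of the same cluster, was higher (LFC = 1.32, SE = 0.21, FDR = 9.99e-08).

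Promoter sequence was examined because interferon-stimulated genes are known targets of these elements. RefSeq promoters (GRCm38.p6, 250 bases before to 50 after each gene start) matched 32 of 42 members by symbol. The motif GAAA, any 2 bases, then GAAA, on either strand, stood for the interferon-stimulated response element, and TTCNNNGAA, which reads alike on both strands, for the gamma activated site. The first was present in 20 of the 32 members (62.5%) against 3.99% of all 27025 genes of the table, and the second in 10 members (31.3%) against 9.55%. Among type I type members 13 of 24 held the first motif and 6 the second, and among GTPases 6 of 6 and 3 of 6. The first motif was found in 2 of 4 matched members that passed the threshold and in 18 of 28 that did not, so it was not limited to the genes that were higher in humanized mice. Stretches are shown 5′ to 3′ on the gene's strand with motif matches in capitals, first for genes that passed the threshold (Ifit1, Rsad2 and Irf1), then for Ifit3, the neighbour that did not, for Isg15 and Oas3, which were high in 1 humanized mouse, and for Igtp and Irgm2, the GTPases nearest the threshold.
Ifit1, chr19:34640755-34640833 (plus strand): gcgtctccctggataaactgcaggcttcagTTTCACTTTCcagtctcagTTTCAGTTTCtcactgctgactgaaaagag
Rsad2, chr12:26456543-26456602 (minus strand): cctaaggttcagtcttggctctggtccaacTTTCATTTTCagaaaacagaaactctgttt
Irf1, chr11:53769894-53769952 (plus strand): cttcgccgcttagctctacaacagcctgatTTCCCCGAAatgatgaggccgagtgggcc
Ifit3, chr19:34583343-34583436 (plus strand): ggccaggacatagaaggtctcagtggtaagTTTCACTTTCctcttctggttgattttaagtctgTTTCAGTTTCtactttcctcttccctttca
Isg15, chr4:156200855-156200926 (minus strand): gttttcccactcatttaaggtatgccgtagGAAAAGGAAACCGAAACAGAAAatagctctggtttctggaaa
Oas3, chr5:120777705-120777764 (minus strand): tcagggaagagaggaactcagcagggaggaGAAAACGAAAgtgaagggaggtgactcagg
Igtp, chr11:58199481-58199551 (plus strand): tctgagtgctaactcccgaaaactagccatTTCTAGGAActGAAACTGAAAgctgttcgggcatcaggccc
Irgm2, chr11:58214872-58214942 (plus strand): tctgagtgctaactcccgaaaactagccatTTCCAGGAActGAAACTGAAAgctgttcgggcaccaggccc

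Ifit1 and Ifit3 both held 2 matches of the first motif with different spacing, although only Ifit1 passed the threshold. The stretch of Isg15 held 3 overlapping matches. Irf1 held the gamma activated site motif and no match of the other. The stretches of Igtp and Irgm2 were identical at 69 of 71 bases and held 1 match of each motif, side by side. A match is a description of letters and not a bound site.

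Of the sensors, the RNA helicases that detect viral RNA did not pass the threshold. Ddx58, which encodes RIG-I, measured 5.23, 4.48, 4.36, 5.01 and 4.48 RPKM in germ-free mice, and 3.24, 3.92 and 4.8 as the lowest, median and highest in humanized mice. Most humanized mice were under the germ-free range, with overlap from humanized mouse 6 (LFC = −0.24, SE = 0.09, FDR = 0.0673). It passed as lower when counts were scaled to total counts or to epithelial genes. Ifih1, which encodes MDA5, was the most abundant sensor, with 10.2, 8.8, 8.49, 9.5 and 9.58 RPKM in germ-free and 8.29 to 12.8 RPKM (median 10.4) in humanized mice. The groups overlapped (LFC = 0.19, FDR = 0.23). Dhx58, which encodes the regulator LGP2, had 3.31, 2.34, 2.06, 2.78 and 2.79 RPKM in germ-free mice and 2.12 to 4.08 RPKM (median 2.57) in humanized mice, also with overlap (LFC = 0.07, FDR = 0.855).

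Among the 6 signalling and feedback genes, Irf1 alone passed (16.7%, against 9.2% of all tested genes as higher). Irf7, the factor that amplifies type I interferon, had 33.7, 37, 30.7, 37.8 and 41.3 RPKM in germ-free mice and 22.8, 26.9 and 44.9 as the lowest, median and highest in humanized mice. Humanized mice 1 to 4 were all below the germ-free range, and humanized mouse 6 was above it (LFC = −0.26, SE = 0.17, FDR = 0.271). Its LFC was −0.41 without humanized mouse 6 and −0.54 with scaling to epithelial genes, where it passed as lower. Irf9, the DNA-binding part of the type I complex, had 6.73, 5.52, 5.11, 6 and 6.92 RPKM in germ-free mice and 5.69 to 9.24 RPKM (median 6.34) in humanized mice. Humanized mouse 6 was again above all other mice (LFC = 0.16, FDR = 0.409). Usp18, the protease that removes Isg15 and damps the receptor, had 2.28, 0.885, 1.43, 1.65 and 1.47 RPKM in germ-free mice and 1.22 to 3.16 RPKM (median 1.43) in humanized mice, and its groups overlapped broadly (LFC = 0.20, FDR = 0.688). Stat2, a part of the type I complex (LFC = 0.06, FDR = 0.747), and Socs1, the inhibitor of JAK kinases (LFC = 0.01, FDR = 0.984), had LFC near 0.

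Of the 16 antiviral effectors, 3 passed as higher (18.8%, against 9.2% of all tested genes) and 13 did not pass. Oasl1, a 2′-5′ oligoadenylate synthetase-like protein, came closest, with 5.44, 4.78, 4.75, 5.46 and 6.08 RPKM in germ-free mice and 5.6, 6.62 and 12.4 as the lowest, median and highest in humanized mice. Humanized mouse 3 lay within the germ-free range (LFC = 0.57, SE = 0.19, FDR = 0.0197). Without that mouse, Oasl1 and Parp9 passed. Neither passed without humanized mouse 6, where the LFC was 0.39 for Oasl1 and 0.26 for Parp9. Bst2, which encodes tetherin, a membrane anchor that holds budding virus (LFC = 0.50, FDR = 0.0394), and Oas1a, an oligoadenylate synthetase (LFC = 0.46, FDR = 0.0441), were past FDR = 0.05 only. Bst2 passed at FDR = 0.01 without humanized mouse 5, with LFC = 0.62.

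Ifitm3, a membrane protein that blocks viral fusion, was the most abundant effector. It had 37.8, 33.5, 41.1, 49.4 and 44.2 RPKM in germ-free mice, and 6.3, 28.7 and 38.4 as the lowest, median and highest in humanized mice. Humanized mouse 5 was far below all other mice, and humanized mice 1, 2 and 4 also lay under the germ-free range (LFC = −0.57, SE = 0.32, FDR = 0.199). Without mouse 5 its LFC was −0.36. The related Ifitm1 was lowest in the same mouse (LFC = 0.03, SE = 0.40). The remaining effectors did not pass. They were the ubiquitin-like Isg15 (LFC = 0.49, FDR = 0.36), the synthetases Oas2 (0.74, FDR = 0.165) and Oas3 (0.69, FDR = 0.376), the related Oasl2 (0.37, FDR = 0.53), the GTPase Mx2 (0.33, FDR = 0.541), and the kinase Eif2ak2, also called PKR (−0.03, FDR = 0.881), with Ifit3 and Cmpk2 as above. Without humanized mouse 6 the LFC was 0.38 for Oas2, −0.12 for Oas3, 0.08 for Isg15, −0.03 for Oasl2 and 0.06 for Mx2.

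None of the 8 other type I interferon genes passed, against 9.2% higher and 10.1% lower of all tested genes. An LFC above 0 was found in 5 of the 8 (62.5%), against 51.2% of all genes. Parp9, which works with the ubiquitin ligase Dtx3l, had 11.9, 10.4, 9.75, 11.4 and 10.8 RPKM in germ-free mice and 10.3, 13.7 and 17.3 as the lowest, median and highest in humanized mice. Only humanized mouse 3 lay within the germ-free range (LFC = 0.34, SE = 0.11, FDR = 0.0141). Ifi35, an interferon-induced leucine zipper protein, had 15.3, 14.6, 14.1, 17.2 and 15.9 RPKM in germ-free mice and 17, 17.8 and 21.3 as the lowest, median and highest in humanized mice. Humanized mice 2 and 5 lay just inside the germ-free range (LFC = 0.23, SE = 0.07, FDR = 0.0418). Trim30a, a member of the tripartite motif family, had 1.64, 1.44, 1.69, 2.3 and 1.63 RPKM in germ-free mice and 0.548, 1.52 and 1.87 as the lowest, median and highest in humanized mice (LFC = −0.35, FDR = 0.401, and LFC = −0.19 without humanized mouse 5). Herc6, the mouse ligase for Isg15, had 2.44, 1.37, 1.41, 2.02 and 1.96 RPKM in germ-free mice and 1.55 to 2.9 RPKM (median 1.84) in humanized mice (LFC = 0.17, FDR = 0.615). Trim30a and Herc6 overlapped between groups. Parp14, an ADP-ribosyltransferase (LFC = 0.04), Rtp4, an interferon-induced regulator (0.13), Xaf1, a pro-apoptotic factor (−0.03), and Ifi44 (−0.21) had FDR of 0.785 to 0.945.

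**Figure D2:**
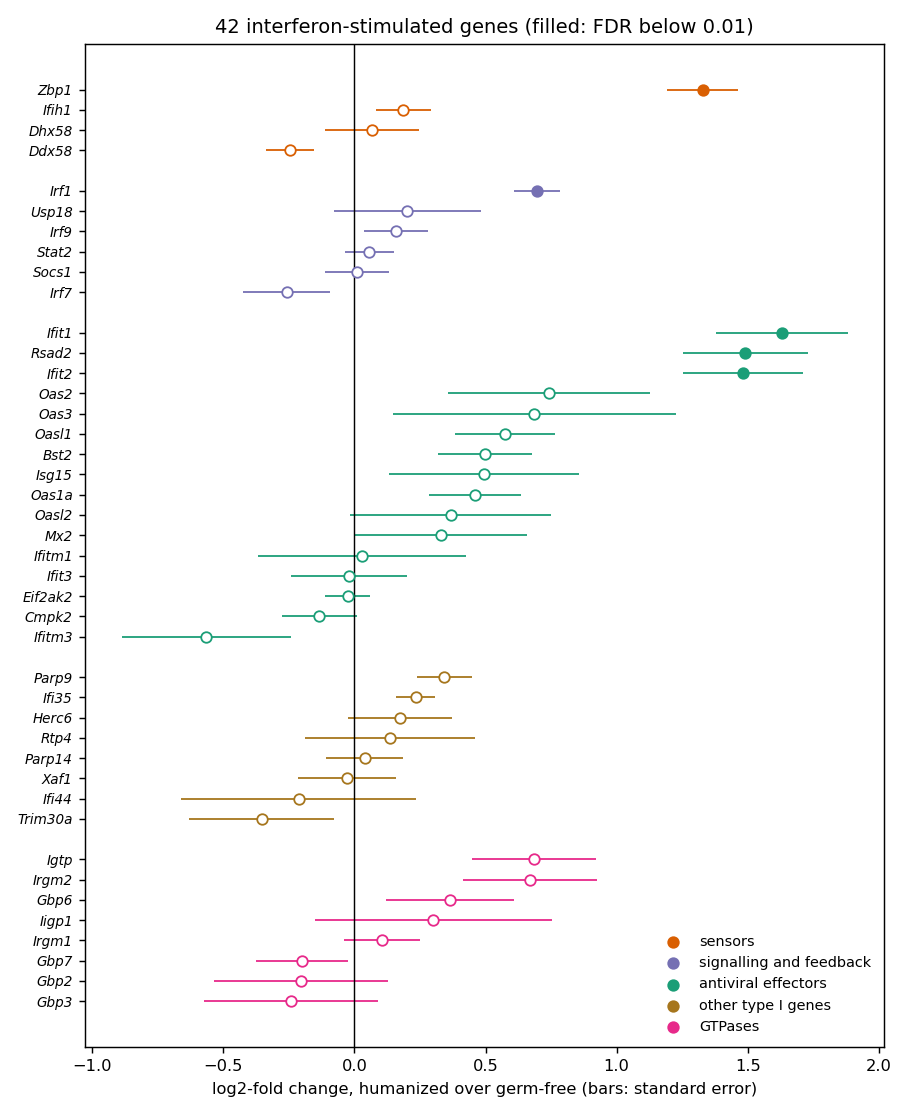
LFC of humanized over germ-free (horizontal axis, bars are SE) for the 42 members, grouped and coloured by role, with filled points at FDR below 0.01. The filled points are Zbp1, Irf1, Ifit1, Rsad2 and Ifit2, and the lowest LFC is that of Ifitm3 at −0.57.

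The interferon-gamma inducible GTPases, which attack the vacuoles of intracellular microbes, included no member past the threshold. The count was 0 of 8 GTPases against 4 of 32 type I type members (12.5%), with 9.2% of all tested genes as background, and the difference between the classes was not tested. At FDR = 0.05 the counts were 2 of 8 and 9 of 32 higher, against 14% of all genes. The median LFC was 0.20 for the GTPases and 0.18 for the type I type members, and without humanized mouse 6 they were 0.05 and 0.01. Scaling to epithelial genes turned both, to −0.06 and −0.11. The GTPase median also fell without humanized mouse 2, rose without humanized mouse 5, and was negative with a block on the mouse number.

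Igtp (chr11:58199556-58207591), also called Irgm3, had 5.08, 3.79, 4.15, 5.1 and 4.37 RPKM in germ-free mice and 4.3, 5.84 and 12 as the lowest, median and highest in humanized mice. Humanized mouse 5 alone lay within the germ-free range (LFC = 0.69, SE = 0.24, FDR = 0.0259). Without that mouse Igtp passed, with LFC = 0.80. Its LFC was 0.48 without humanized mouse 6 and 0.41 with scaling to epithelial genes, and it did not pass in either. Irgm2, the GTPase gene beside it, had 5.47, 3.5, 3.56, 4.08 and 4.16 RPKM in germ-free mice and 4.09, 5.19 and 11.6 as the lowest, median and highest in humanized mice. Its groups overlapped (LFC = 0.67, SE = 0.26, FDR = 0.0419), and without humanized mouse 6 the LFC was 0.43. Irgm1, a regulator of the effector GTPases and the most abundant of the 8, had 7.92, 6.95, 7.1, 8.74 and 7.96 RPKM in germ-free mice and 6.14 to 11.1 RPKM (median 7.77) in humanized mice, with overlap (LFC = 0.11, FDR = 0.668).

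None of the guanylate-binding proteins passed, against 19.3% of all tested genes, and their groups overlapped. Gbp6 had 0.728, 0.536, 0.458, 0.584 and 0.531 RPKM in germ-free mice and 0.387, 0.693 and 1.26 as the lowest, median and highest in humanized mice (LFC = 0.36, FDR = 0.337). Gbp7 had 3.3, 2.91, 3.26, 2.95 and 2.8 RPKM in germ-free mice and 1.67, 2.57 and 3.77 as the lowest, median and highest in humanized mice (LFC = −0.20, FDR = 0.48). In both, the humanized range extended beyond the germ-free range on each side. Gbp2 (LFC = −0.21), Gbp3 (−0.24) and the effector GTPase Iigp1 (0.30) had FDR of 0.661 to 0.71. Single mice carried much of these values, since without humanized mouse 5 the LFC was −0.002 for Gbp2, −0.05 for Gbp3, −0.10 for Gbp7 and 0.53 for Iigp1. Without humanized mouse 2 it was 0.14 for Gbp6 and 0.06 for Iigp1.

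Members varied more among humanized than among germ-free mice. The median coefficient of variation of the members was 16.5% in germ-free and 30.8% in humanized mice, against 10.4% and 16.5% for all tested genes. It was higher in humanized mice for 39 of 42 members (92.9%) and for 80.2% of all genes. For the 8 GTPases the medians were 16.5% and 42.7%.

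Humanized mice 6 and 2 held most of the highest values of both classes, in a different order. Humanized mouse 6 had the highest level of its group in 29 of 42 members, with 26 of 32 type I type members and 3 of 8 GTPases, and in 11.6% of all genes. Isg15, chosen here after its values were seen, stood at 19.1 RPKM in that mouse and at 5.12 to 8.36 RPKM in the others. Oas3 likewise stood at 7.85 RPKM against 0.565 to 2.01 RPKM. Humanized mouse 5 was the lowest of its group in 6 of 8 GTPases, against 28.2% of all genes, and humanized mouse 2 was the highest in 5 of 8. Iigp1 stood at 0.29 RPKM in mouse 5 and at 3.62 RPKM in mouse 2, and Gbp2 at 0.937 and 5.71 RPKM.

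Within each mouse, the median log2 ratio of the type I type members to their germ-free means was 0.08, 0.27, −0.10, −0.10, −0.05 and 0.65 in humanized mice 1 to 6. For the GTPases it was −0.09, 0.76, 0.13, −0.20, −0.70 and 0.48. Humanized mouse 6 was therefore highest for the type I type members and mouse 2 for the GTPases, and mouse 5 was lowest for the GTPases alone. Each of mice 6 and 2 was second in the other class. Without humanized mouse 6, 7 members that had not passed changed sign, namely Dhx58, Oas3, Oasl2, Parp14, Rtp4, Stat2 and Usp18. Without humanized mice 5 and 6 together, the members that passed were 7 higher, with Bst2 and Igtp added to the 5 genes, and 3 lower, namely Ddx58, Irf7 and Ifitm3, against 9.02% and 11% of all genes tested in that fit.

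**Figure D3:**
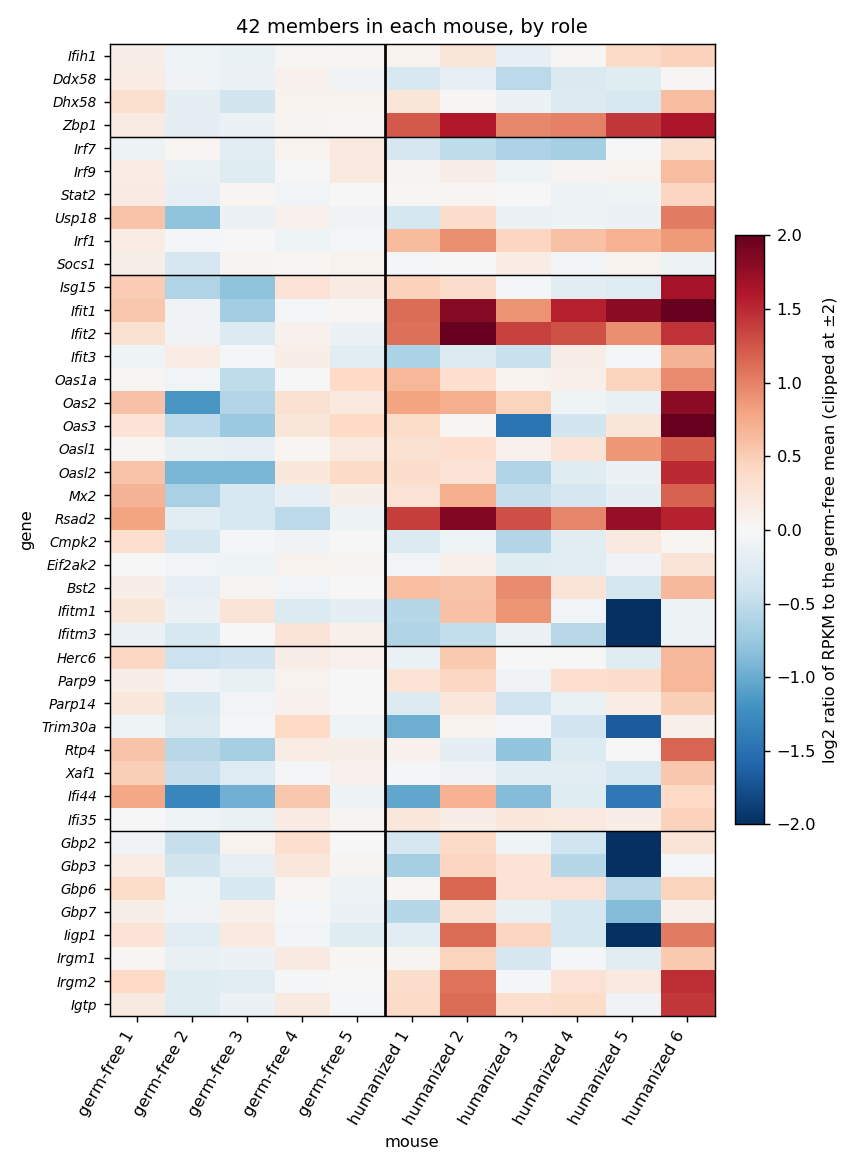
Log2 ratio of RPKM to the germ-free mean (colour, red above and blue below, clipped at 2 in each direction) for the 42 members in rows, by role, and the 11 mice in columns. Red runs across all 6 humanized mice for Zbp1, Irf1, Ifit1, Ifit2 and Rsad2, and humanized mouse 6 is the highest of its group in 29 of 42 members.

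**Figure D4:**
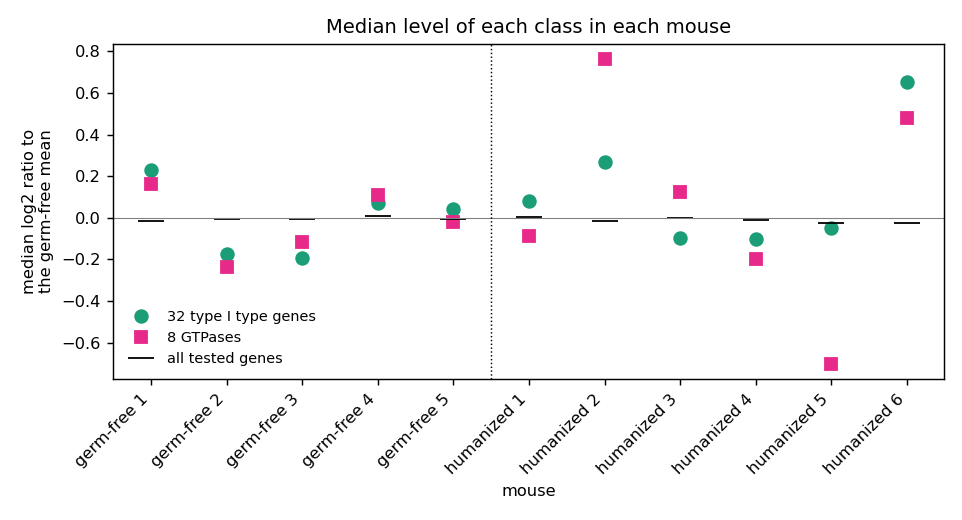
Median log2 ratio to the germ-free mean in each mouse (vertical axis) for the 32 type I type members (circles), the 8 GTPases (squares) and all tested genes (dashes). Humanized mouse 6 is highest for the type I type members at 0.65, and the GTPases run from −0.70 in humanized mouse 5 to 0.76 in humanized mouse 2.

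Germ-free mice also differed among themselves in these genes. Germ-free mice 2 and 3 were both below germ-free mice 1, 4 and 5 in 26 of 42 members (61.9%), in 22 of 32 type I type members and in 4 of 8 GTPases, against 7.27% of all tested genes. This grouping of the mice was picked after the members' values were seen and is a description only. Germ-free mouse 1 had the highest level of its group in 27 of 42 members, against 23.6% of all genes. Oasl2, chosen here after its values were seen, had 8.37, 2.99, 3, 6.49 and 7.32 RPKM, which shows both patterns. Mice were housed singly and no batch is named in the labels.

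The interferon ligands themselves were near or below detection. Of 21 ligand genes listed, 20 could be matched, none passed the filter on low counts, and 17, Ifnb1 among them, had 0 counts in every mouse. A count of 0 allows up to 3 counts per library, or 0.0468 to 0.0767 CPM, and covers counting error only. Ifng, the single gene of interferon-gamma, had 2, 2, 7, 0 and 0 counts in germ-free mice 1 to 5 and 0, 4, 2, 0, 0 and 1 in humanized mice 1 to 6. The groups overlapped at these few counts, and Ifng was not among the genes tested at the filter used here.

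Outside the 42 members, 104 other genes of the interferon pathway passed the filter on low counts, of which 15 were higher (14.4%) and 1 lower (0.962%), against 9.2% and 10.1% of all tested genes. Scaling to total counts changed these to 8 higher and 10 lower, against 3.89% and 18.2% of all tested genes under that scaling. None of the 11 receptor, kinase and STAT genes passed by the edgeR exact test, while 1 was higher with DESeq2 (11% of all genes). At FDR = 0.05 by the exact test, 2 of them were higher (14% of all genes). Of 16 upstream sensors and adaptors, 3 were higher, namely the kinase Ikbke (LFC = 0.28, FDR = 0.000235), the factor Irf8 (0.25, FDR = 0.00198) and Ticam1, the adaptor of Tlr3 (0.34, FDR = 0.00305).

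Of 49 other type I interferon-stimulated genes, 8 were higher (16.3%, against 9.2% of all tested genes) and 0 lower, against 10.1%. With the quasi-likelihood test 5 were higher and 0 lower, and with DESeq2 9 were higher and 2 lower. The leading ones were the peptidase Lap3 (LFC = 0.60, FDR = 1.16e-09), the Ifit family gene Ifit1bl2 (1.32, FDR = 9.99e-08), the secreted galectin-binding protein Lgals3bp (0.59, FDR = 6.69e-05) and the helicase Helz2 (0.38, FDR = 0.000424).

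Of 28 other interferon-gamma inducible genes, 4 were higher (14.3%, against 9.2% of all tested genes) and 1 lower, against 10.1%. The lower one did not pass with DESeq2 or with the quasi-likelihood test. Ido1, which degrades tryptophan, had an LFC of 2.07 (SE = 0.19, FDR = 7.16e-23), the immunoproteasome subunit Psmb8 one of 0.90 (FDR = 1.09e-08), the ubiquitin-like Ubd one of 3.10 (FDR = 8.71e-06) and the chemokine Cxcl9 one of 2.44 (FDR = 0.000243). Every humanized mouse was above every germ-free mouse for Ido1, Psmb8 and Ubd. Whether this list differs from the 8 GTPases was not tested.

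**Figure D5:**
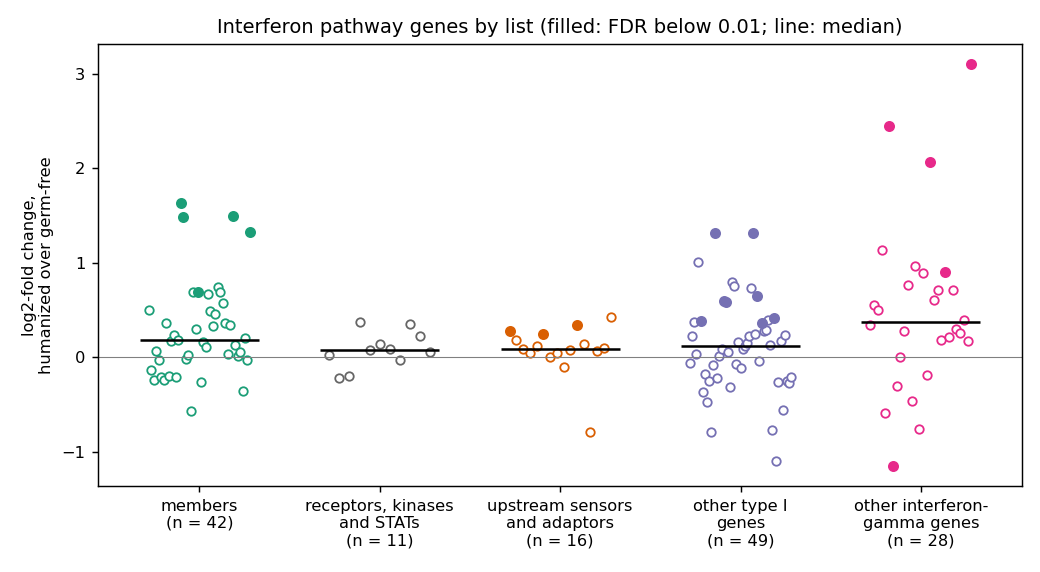
LFC of humanized over germ-free (vertical axis) for the 42 members and 4 lists of other pathway genes, with filled points at FDR below 0.01 and a line at each median. Filled points, by the edgeR exact test, reach 3.10 among other interferon-gamma inducible genes (Ubd). No receptor, kinase or STAT gene is filled.

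Some cell type markers also differed between the groups. Of all tested genes, 9.2% were higher and 10.1% lower. Of 16 T and NK cell markers, 9 were higher and 1 lower, and their summed level was 16.1 to 19.2 RPKM in germ-free and 24.5 to 59.3 RPKM in humanized mice. Humanized mouse 2, highest for the GTPases, had the highest sum, and humanized mouse 6, highest for the type I type members, the lowest of its group. Mouse 6 was nevertheless second for the GTPases, at a median log2 ratio of 0.48. Humanized mouse 3, with the second highest sum at 49.6 RPKM, had a GTPase median of 0.13. Of 9 B and plasma cell markers, 5 were higher, with sums of 75.0 to 121 and 168 to 659 RPKM. All 10 smooth muscle markers were lower, with sums of 282 to 863 and 38.3 to 300.2 RPKM, and of the humanized mice number 5 held the lowest sum and number 6 the highest. Of 11 epithelial markers, 3 were higher, with sums of 4326 to 5945 and 4994 to 7097 RPKM, and of 10 macrophage and monocyte markers 1 was higher and 7 had an LFC below 0 (median −0.35), with sums of 96.1 to 116 and 86.1 to 137 RPKM. Of 6 colon markers, 1 was higher, with sums of 3646 to 5317 and 8245 to 12993 RPKM, most of it from Car1, the marker that passed, while the median LFC of the list was 0.31. Humanized mouse 6 had the highest sum of epithelial and of colon markers. Of 5 plasmacytoid dendritic cell markers, 1 was lower, Siglech, with sums of 805 to 1185 and 802 to 1321 RPKM, most of it from Klk1 (mean of 982 RPKM). The median LFC of these 5 was −0.58, and 3 were lower at FDR = 0.05, against 14.6% of all genes. The plasma cell marker Tnfrsf17 was at 0 in germ-free mice 2 and 4. The part of any of these in the members' values was not tested, and in bulk tissue fewer cells of a type and less RNA per cell cannot be told apart.

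Reads of some members may be shared with other genes. In the GENCODE M21 annotation, 17 of 42 members share exonic bases with another gene and 25 share none. Zbp1, Ifit1, Ifit2 and Rsad2 share none, and Irf1 shares 3.40% of its exonic bases with a gene on the opposite strand, which libraries of this kind, without strand information, cannot tell apart. The greatest share was 41.6%, of Gbp6 with Gbp10. The same Gbp6 entry shares 40.0% of its exonic bases with a separate gene that the annotation also names Gbp6. Its values may therefore not stand for a single gene. Igtp and Irgm2 share 162 exonic bases. Read sharing between similar paralogs was not measured, so values of paralogous members, such as the guanylate-binding proteins and the Oas, Ifit and Irgm genes, are uncertain to that degree.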

How the data were processed

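RNA was taken from the colon of 5 germ-free and 6 humanized male mice and sequenced as unstranded 101 bp paired-end reads. The authors deposited whole-number counts for 43346 genes, made with TopHat2 2.1.0, Bowtie2 2.2.3 and featureCounts from Subread 1.4.6-p5 on mm10. With R 4.3.3 and edgeR 4.0.16, the filterByExpr defaults (minimum count 10, minimum total count 15) left 19863 genes, TMM factors were applied, and the exact test was followed by Benjamini–Hochberg correction with a threshold of FDR = 0.01. Standard errors came from the edgeR quasi-likelihood fit. RPKM is the TMM-normalized value per kilobase of the deposited gene length. Single genes were also tested by exact permutation of the mice on log2 CPM with a prior count of 2. The scripts were tested on simulated data. The members, role lists, pathway lists and markers were chosen with earlier results of these data known. Every member is named. Values (each germ-free mouse, and the lowest, median and highest humanized mouse) are given for up to 4 members per role with the lowest FDR and for the most abundant, and genes of other lists are named at FDR below the threshold, up to 4 per list, with Ifng and Ifnb1. A further gene of that rule is not reported here. Alternatives were other scalings, filters and tests (among them DESeq2 1.42.0), a block on the mouse number, and each mouse left out. Leaving out humanized mice 5 and 6 together, and the ratios of neighbouring genes, were added after seeing the data. Read depth ran from 39125290 to 64148538 counts.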

Additional observations from a re-analysis of the deposited data

Results flagged for a closer look

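Of 84 group values tested (42 members in 2 groups), 14 had 1 mouse far from the others of its group by Dixon's test, where chance gives about 1 in 20. In 9 of these the mouse was humanized mouse 6, which had the highest RPKM: Irf9 at 9.24, Stat2 at 13.8, Isg15 at 19.1, Oas2 at 1.7, Oas3 at 7.85, Oasl2 at 15.8, Rtp4 at 8.58, Xaf1 at 2.76 and Ifi35 at 21.3. Ifit2 was highest in humanized mouse 2 at 8.16 RPKM, and Ifitm3 was lowest in humanized mouse 5 at 6.3 RPKM. In germ-free mice, Socs1 was lowest in mouse 2 at 1.77 RPKM, Rsad2 highest in mouse 1 at 1.62 RPKM and Trim30a highest in mouse 4 at 2.3 RPKM. The members share a regulator class and their values are not independent of each other.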

How the results depend on the processing

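Of 924 member values under alternatives, 905 kept their side of the threshold, 19 gained a call and 0 lost one. Some of the gained calls come from the main fit read at FDR = 0.05, a changed threshold and not changed processing. The sign of the LFC changed in 70 values of 19 members, none of which had passed, with 12 under epithelial scaling, 10 under total counts, 9 under the block and 7 without humanized mouse 6. At FDR = 0.05, 12 members, 9 type I type members and 2 GTPases were higher, with 26 other pathway genes higher and 4 lower. The shares of all genes were 14% higher and 14.6% lower. Total counts gave 1 lower member, of type I type, and 8 higher and 10 lower pathway genes, against 3.89% and 18.2% of all genes. Epithelial scaling gave 2 lower members, both of type I type, and 6 higher and 7 lower pathway genes, against 2.41% and 14.2%. The median LFC of the members turned to −0.01 and −0.11 under these scalings. Leaving out 1 mouse gave 5 to 7 members, 4 to 6 type I type members and 0 to 1 GTPases higher, and 11 to 22 pathway genes higher and 0 to 4 lower. The shares of all genes ran from 6.69% to 10.6% higher and from 7.45% to 11.8% lower. Leaving out humanized mice 5 and 6, added after seeing the data, gave 1 GTPase higher, 3 members lower, all of type I type, and 6 pathway genes lower. The shares of all genes were 9.02% higher and 11% lower. The single lower pathway gene, F830016B08Rik, did not pass with DESeq2 or the quasi-likelihood test. The count of lower pathway genes was 0 with the quasi-likelihood test, without a filter and with at least 10 counts in every mouse, and 2 with DESeq2 and with upper-quartile scaling. Mice with the same number did not deviate together (correlations −0.133 to 0.091), and with a block on the mouse number the members stayed at 5 higher, the pathway genes were 6 higher and 0 lower, against 2.54% of all genes in each direction, and the median LFC was 0.01 for the members and −0.14 for the GTPases. Humanized mouse 6 has no germ-free mouse of its number and adds nothing there. Genes under the filter on low counts, all ligands among them, entered only the fit without a filter, and the causes of these changes were not tested.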
